A study of Homo sapiens with 2 samples.

Results

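The 8 genes described here encode partners of HOX transcription factors: PBX2, PBX3 and PBX4, MEIS1, MEIS2 and MEIS3, and PKNOX1 and PKNOX2. They were taken by name among the 20046 protein-coding genes that RefSeq places on a chromosome of GRCh38.p14, and a peak was counted at a gene when it lay inside it or within 3 kb of an end. The data are peak lists from CUT & Tag, in which an antibody guides a transposase to a protein and the DNA nearby is cut and sequenced. The cells were TFK-1, an established line of extrahepatic cholangiocarcinoma. LV-HOXA5 cells had been transduced with a lentivirus for Flag-tagged HOXA5, and LV-HOXA5-NC cells with the matching control lentivirus (labelled normal control). Both were selected with puromycin as stable lines, and whether these were single clones was not stated. The anti-Flag antibody was used in both, on 1000000 cells each, with 1 library per condition, so that nothing here was tested between conditions. Whether the libraries came from TFK-1 cells cannot be checked from peak positions.

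HOX proteins bind DNA poorly alone and gain affinity and selectivity from cofactors of the TALE class, whose homeodomain carries an extended loop. PBX proteins contact a short peptide of the HOX protein and bind next to it on a composite site. MEIS and PKNOX proteins bind the other end of PBX, help to hold it in the nucleus and can join the complex on DNA. The lists show where Flag signal was found at the genes of these cofactors and not where the cofactor proteins themselves were bound.

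Of the 8 cofactor genes, 1 had a peak in the LV-HOXA5 list and none had a peak in the LV-HOXA5-NC list. The gene with a peak was PBX3, which encodes a PBX protein studied in leukaemia as a partner of HOXA9 and MEIS1. The share of all protein-coding genes with an LV-HOXA5 peak by the same rule was 20.7%, and with an LV-HOXA5-NC peak it was 0.713%, so that neither count sets the cofactor genes apart from genes in general. PBX2, PBX4, MEIS1, MEIS2, MEIS3, PKNOX1 and PKNOX2 had no LV-HOXA5 peak inside them or within 3 kb.

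The peak at PBX3 did not lie in the gene. It occupied chr9:125746057-125746627 (571 bp), ended 746 bp before the lower end of PBX3 (chr9:125747373-125967377, plus strand), and had its summit 1045 bp before that end. The 1 RefSeq start of PBX3 at hand here lay 810 bp inside this end, and none at the end itself was listed. From that start the nearest edge of the peak was 1556 bp and the summit 1855 bp away. Much closer was the start of PBX3-DT, a long non-coding RNA gene (chr9:125743754-125745929) transcribed from the minus strand, away from PBX3. The nearest edge of the peak was 128 bp and the summit 399 bp from that start. The peak thus sat in the 1444 bp between both genes, on the side of the divergent transcript. PBX3-DT was singled out after its position had been seen.

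The sequence around the start of PBX3-DT is shown because it is the part of a promoter window that the peak covered. It runs from 250 bases before to 50 after the start on the minus strand (chr9:125745880-125746179, GRCh38.p14, RefSeq), and capitals mark the 123 bases under the peak.
PBX3-DT: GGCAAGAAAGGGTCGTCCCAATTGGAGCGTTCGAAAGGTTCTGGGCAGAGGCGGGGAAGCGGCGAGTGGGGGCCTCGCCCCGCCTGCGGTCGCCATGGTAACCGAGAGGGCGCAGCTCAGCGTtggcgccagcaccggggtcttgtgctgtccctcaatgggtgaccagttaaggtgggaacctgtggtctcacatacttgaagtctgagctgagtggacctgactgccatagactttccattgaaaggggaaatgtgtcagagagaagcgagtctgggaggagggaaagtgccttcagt

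**Figure D1:**
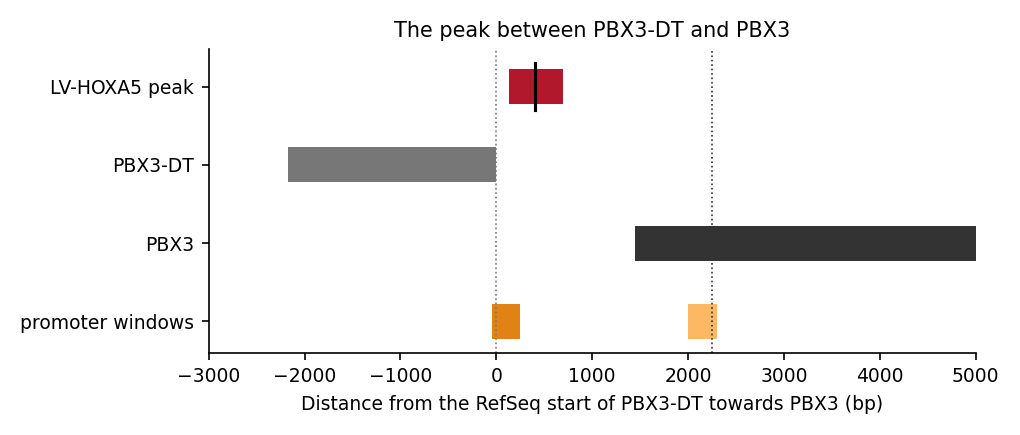
Map of the PBX3 locus, with the distance in bp from the RefSeq start of PBX3-DT towards PBX3 on the horizontal axis. The red bar is the LV-HOXA5 peak with its summit as a black line, the grey and black bars are the genes (PBX3 runs on beyond the right edge), the orange bars are the promoter windows (250 bases before to 50 after a RefSeq start) and dotted lines are RefSeq starts. The peak reaches into the window of PBX3-DT and not into that of PBX3.

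In the LV-HOXA5 library the PBX3 peak was covered at its summit by 18 fragments, the pileup (exact 95% Poisson interval 10.7 to 28.4, counting error only). Against the background estimated around it, its enrichment was 6.85-fold, and its −log10 q-value was 9.21. It ranked 1001 of 8043 peaks by fold enrichment and 1990 by q-value. The place of this peak in the list was thus higher by fold than by fragments, since 87.5% of the LV-HOXA5 peaks had a lower fold enrichment and 53.3% a lower pileup. The local background recovered from both values was 1.77 fragments, which is 1.23 times the level over the whole genome, and 20.3% of the peaks had a lower one. A moderate pileup therefore stood on a low background here.

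The same held when the PBX3 peak was set beside peaks at gene ends only. The 2113 LV-HOXA5 peaks within 1 kb of an end of a protein-coding gene had a median pileup of 17 fragments, a median fold enrichment of 4.87 and a median background of 2.60 fragments. Among them, 91.0% had a lower fold enrichment, 54.5% a lower pileup and 14.6% a lower background than the PBX3 peak. It was also longer than 78.6% of them.

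No LV-HOXA5-NC peak overlapped the PBX3 peak, and the nearest one lay 6800 kb away. The control library was far shallower, with 1948734 fragments against 15778555, or 12.4%. At that depth the PBX3 pileup corresponds to 2.22 fragments, whereas 4 were needed on its background to be as significant as the weakest control peak. A site of equal density would thus on average fall short of that number in the control, and the lack of a control peak shows no difference between the conditions. At the background of the whole genome, 8 fragments made a peak in the LV-HOXA5 library and 4 in the control library, the latter equal to 32.4 fragments on the LV-HOXA5 scale. At the 7 genes without a peak, signal under these limits was not detectable, and its absence is not shown. Where the local background is higher, the limits are higher too. At the peaks nearest to MEIS3 and PBX2 it was 5.40 and 3.97 fragments, and 6 control fragments were needed at each.

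Being listed as within 1 kb of a gene end depended on how the distance was measured. PBX3 was the 1 cofactor gene with an LV-HOXA5 peak that close, against 13.0% of the protein-coding genes. When the summit, or at least 0.5 of the peak's length, or the RefSeq start in place of both gene ends decided, the count was 0. RefSeq promoter windows were at hand for 7 of the 8 genes (9 windows, all but PKNOX2), and none of them touched an LV-HOXA5 peak. Over all protein-coding genes with such windows, 12.6% had a peak over one. Of the divergent transcripts named after the cofactor genes, PBX3-DT was closer than 1 kb to a peak and PKNOX2-DT was not. Among the 594 genes that RefSeq names as divergent transcripts, 19.2% were that close to one.

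Beyond PBX3, the order of the genes by distance to the nearest LV-HOXA5 peak was MEIS3, PBX2, PBX4, PKNOX1, PKNOX2, MEIS2 and MEIS1. PBX2 and MEIS3 were the genes just outside the limit of 3 kb. In both cases the peak lay at another gene.

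**Figure D2:**
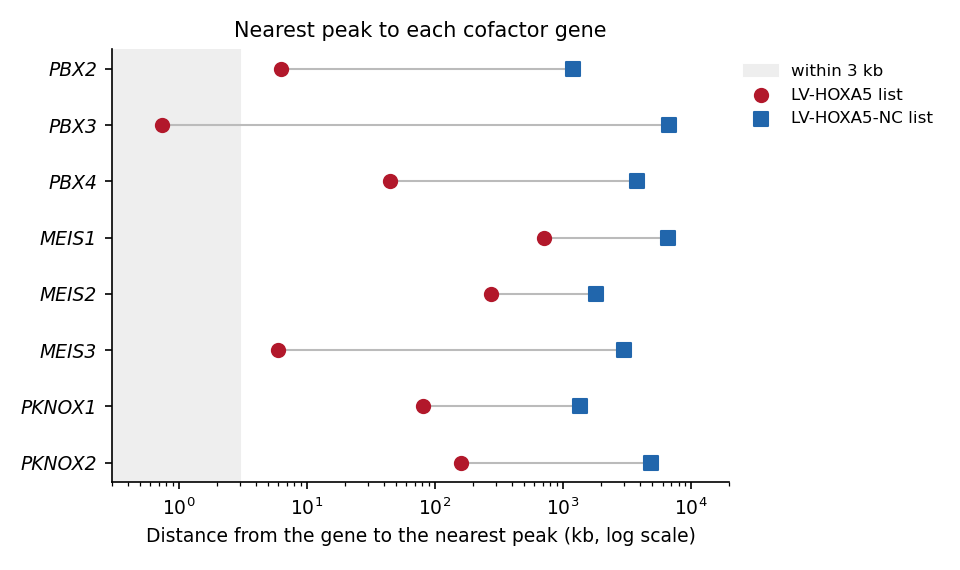
Distance in kb (log scale) from each cofactor gene to the nearest peak of the LV-HOXA5 list (red circles) and of the LV-HOXA5-NC list (blue squares), 1 library each, with the 3 kb window shaded. Only PBX3 lies in the window, and the closest LV-HOXA5-NC peak, at PBX2, is 1198 kb away.

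PBX2 (chr6:32184733-32190202, minus strand) encodes a widely expressed PBX protein and lies among the closely packed genes of the major histocompatibility complex. Its nearest LV-HOXA5 peak, chr6:32177822-32178464, lay 6269 bp beyond the downstream end of PBX2. AGER, the receptor for advanced glycation end products, RNF5, a ubiquitin ligase, and AGPAT1, an enzyme of phospholipid synthesis, were all within 3 kb of it. The peak had a pileup of 33 fragments, a 6.83-fold enrichment (rank 1013) and a background of 3.97 fragments. Its fold enrichment was thus close to that of the PBX3 peak, on a higher background. With the window set to 10 kb, PBX2 would count as having a peak.

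MEIS3 (chr19:47403124-47422233, minus strand) encodes the least studied of the MEIS proteins. The nearest LV-HOXA5 peak, chr19:47428161-47428535, lay 5928 bp upstream of its start and next to SLC8A2, a sodium and calcium exchanger. It had a pileup of 31 fragments, a 5.00-fold enrichment (rank 3521) and a background of 5.40 fragments, which was higher than at 88.9% of the peaks. By fragments this peak exceeded that of PBX3, and by fold it lay near the middle of the list. With the 10 kb window, PBX2, PBX3 and MEIS3 made up the 3 genes with a peak, while 24.8% of the protein-coding genes had one.

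**Figure D3:**
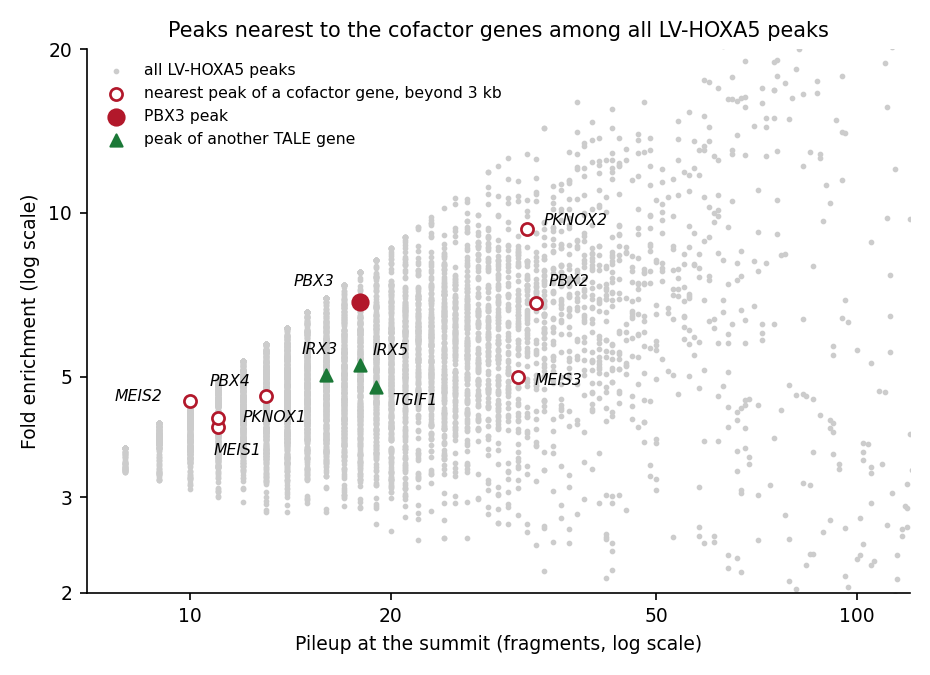
Pileup at the summit in fragments and fold enrichment, both on log scales, of the LV-HOXA5 peaks (grey; 240 of the 8043 lie outside the axes), with the PBX3 peak as a filled red circle, the nearest peaks of the other cofactor genes as open circles and the peaks of other TALE genes as green triangles. The peaks nearest to PBX2, MEIS3 and PKNOX2 have over 30 fragments, and those nearest to MEIS1, MEIS2, PBX4 and PKNOX1 have 10 to 13.

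PBX4 (chr19:19561713-19618687, minus strand) is known for its expression in testis, and PKNOX1 (chr21:42974562-43033931, plus strand) is a broadly expressed partner of PBX. Both lay farther from their nearest LV-HOXA5 peak than PBX2 and MEIS3 did. The peak nearest to PBX4 lay 45.0 kb upstream at ATP13A1, a transport ATPase of the endoplasmic reticulum, with 13 fragments and a 4.60-fold enrichment. That nearest to PKNOX1 lay 81.0 kb upstream at WDR4, a subunit of a tRNA methyltransferase, and NDUFV3, a subunit of respiratory complex I, with 11 fragments and a 4.20-fold enrichment. Both peaks had a lower fold enrichment than the median of the list, 4.82.

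MEIS1, MEIS2 and PKNOX2 had no LV-HOXA5 peak within 100 kb, unlike the other 5 genes. PKNOX2 (chr11:125164751-125433389), a relative of PKNOX1 with more restricted expression, had its nearest peak 159 kb above its higher end at STT3A, the catalytic subunit of an oligosaccharyltransferase. Its 9.34-fold enrichment (rank 292) was the highest among the nearest peaks of the 8 genes and exceeded that of 96.4% of the list, while its 32 fragments were 1 fewer than at the peak nearest to PBX2. Its distance of over 100 kb, with STT3A beside it, ties it to PKNOX2 by order along the chromosome alone.

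MEIS1 (chr2:66435125-66573869, plus strand), a regulator of blood stem cells and a known cofactor of HOXA9, and MEIS2 (chr15:36889204-37101311, minus strand), active in limb, heart and nervous system development, were the farthest from any peak. The nearest LV-HOXA5 peak to MEIS1 lay 716 kb downstream at LINC01828, with 11 fragments and a 4.03-fold enrichment. That nearest to MEIS2 lay 277 kb downstream at CDIN1, with 10 fragments and a 4.51-fold enrichment. Both pileups were close to the 8 fragments a peak needed at the background of the whole genome, 1.44 fragments. The local background was also 1.44 at the peak nearest to MEIS2. At the peak nearest to MEIS1 it was higher, 1.98, so the limit of 8 is too low there.

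The stretch without any LV-HOXA5 peak was 1969 kb long around MEIS1, 1639 kb around MEIS2 and 1498 kb on the downstream side of the PBX3 peak. They were compared with the 16727 protein-coding genes that no peak touched and that had a peak on both sides along the chromosome. Among those, 81.8%, 77.5% and 75.8% lay in shorter stretches than MEIS1, MEIS2 and PBX3. PKNOX2 and PBX2 lay in stretches of 792 and 716 kb, near the median of 684 kb. PKNOX1, PBX4 and MEIS3 lay in stretches of 369, 278 and 171 kb, all below it. The long stretches around MEIS1, MEIS2 and PBX3 were therefore not unusual in length for this list.

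Counted to 1 Mb on either side, the cofactor genes had between 2 (MEIS1) and 28 (MEIS3) LV-HOXA5 peaks around them, with a median of 4 against 6 for all protein-coding genes. MEIS3 stood apart from the other members, the next being PBX2 with 7 and PBX4, on the same chromosome as MEIS3, with 5. The share of protein-coding genes with as many peaks as MEIS3 was not worked out, so its 28 is not shown to be unusual. No LV-HOXA5-NC peak lay within 1 Mb of any of the 8 genes, as was the case for 81.9% of the protein-coding genes.

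**Figure D4:**
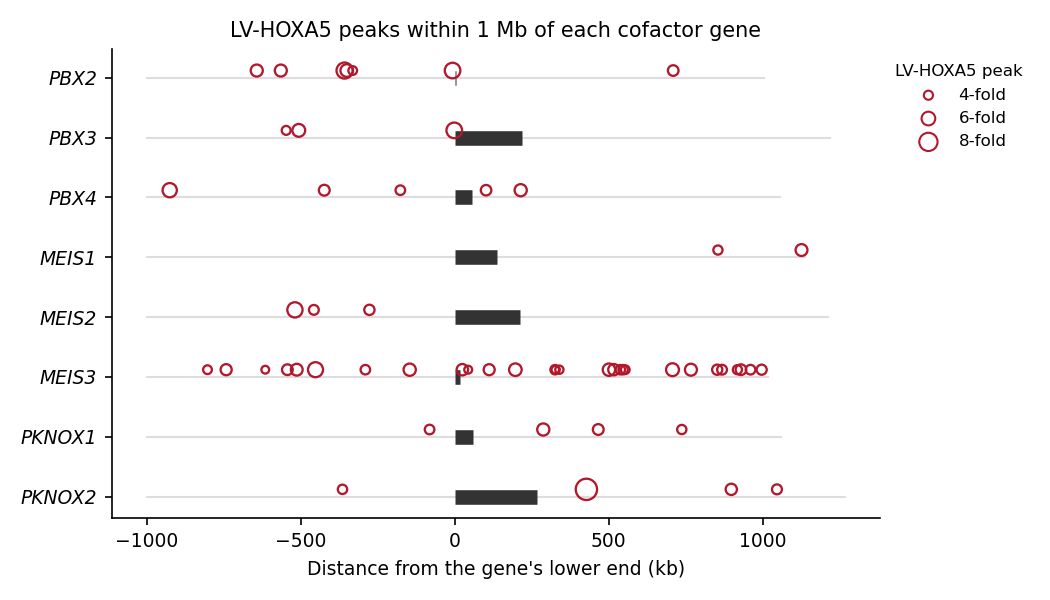
LV-HOXA5 peaks (red circles, area growing with the fold enrichment) by the distance in kb of their summits from the lower end of each cofactor gene, with the gene as a black bar. The line of MEIS3 holds 28 peaks, and that of MEIS1 holds 2, both far above the gene.

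As longer genes offer more room for a peak, each gene was read against those of its own length. The share of protein-coding genes with an LV-HOXA5 peak inside or within 3 kb was 11.5% for genes of up to 10 kb (PBX2), 19.7% for 10 to 50 kb (MEIS3), 26.0% for 50 to 100 kb (PBX4 and PKNOX1) and 34.2% for genes over 100 kb (PBX3, MEIS1, MEIS2 and PKNOX2). Of the 4 long genes, 1 had a peak, namely PBX3, whose peak lay 746 bp outside the gene. The share for genes over 100 kb also counts peaks inside genes, so it is not matched to a peak of this kind. By length, the 8 genes with their windows covered 1.03 Mb and held 1 peak, or 0.972 per Mb (exact 95% Poisson interval 0.0246 to 5.42). All protein-coding genes with their windows held 3.15 peaks per Mb, and those over 100 kb held 2.05. Both values lay within the interval of the cofactor genes, which a single peak leaves wide.

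**Figure D5:**
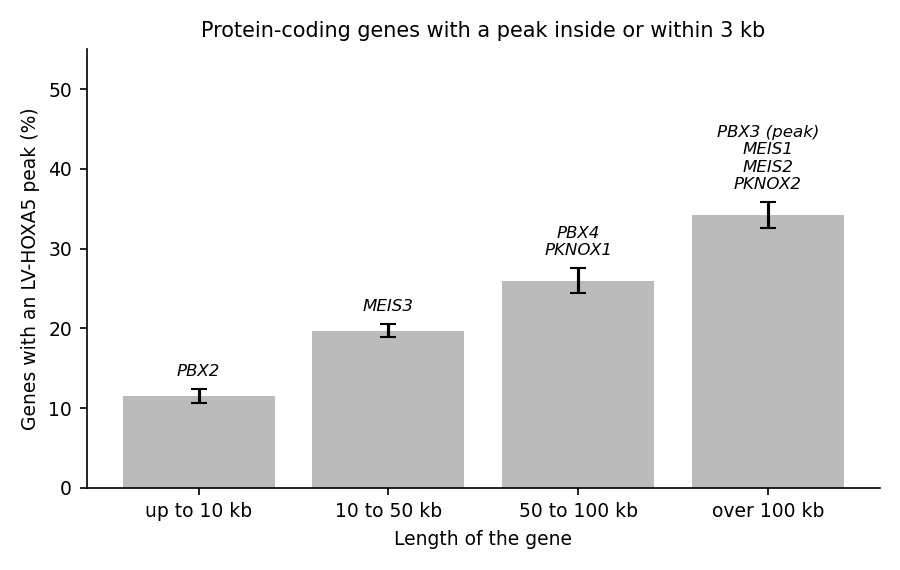
Share of protein-coding genes (%) with an LV-HOXA5 peak inside or within 3 kb, by length of the gene, with exact 95% binomial intervals, which cover counting error only. The names above each bar are the cofactor genes of that length, of which PBX3 alone had a peak.

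The windows before the starts were searched on both strands for the core bound by MEIS and PKNOX proteins (TGACAG), a composite of HOX and PBX (TGATNNAT) and the core of many homeodomains, HOXA5 among them (TAAT). In the 250 bases before the RefSeq starts of 7 genes, TGACAG was found in 1 of the 9 windows, that of PBX3. The share among the 35116 windows of all genes was 13.0%. TGATNNAT was found in 1 of the 9 windows, which belongs to MEIS2, against 6.47% of all windows. TAAT occurred in 4 of the 9 windows, those of MEIS1, MEIS2 (both) and MEIS3 (1 of its pair), against 47.4%. The window of PBX3-DT held none of the 3. These letters describe the windows and do not mark sites of binding.

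The stretches that hold the longer motifs, each of 30 bases, and the 250 bases before the start of MEIS1, the gene farthest from a peak, are given from RefSeq (GRCh38.p14), with the matches in capitals. For PBX3 (chr9:125748151-125748180, plus strand) the match is TGACAG on the other strand, 20 bases before the start and outside the peak. For MEIS2 (chr15:37098742-37098771, minus strand) it is TGATNNAT, and for MEIS1 (chr2:66434875-66435124, plus strand) it is TAAT.
PBX3: aactttgccgagCTGTCAccctcccgctgg
MEIS2: atttcgcctttTGATTTATtggatcctcag
MEIS1: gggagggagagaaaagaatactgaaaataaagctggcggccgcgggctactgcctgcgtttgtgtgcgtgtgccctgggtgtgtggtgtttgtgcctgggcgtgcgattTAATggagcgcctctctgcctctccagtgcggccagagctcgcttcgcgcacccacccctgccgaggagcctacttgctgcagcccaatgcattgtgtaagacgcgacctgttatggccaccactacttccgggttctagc

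In base composition the windows ranged widely. The share of G and C was highest before PKNOX1 (79.2%) and PBX3 (75.6%) and lowest in a window of MEIS2 (52.4%), with a median of 58.0% over all windows. The window of PBX3-DT, which the peak reached, had 60.8%.

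The other genes of the TALE class were examined in the same way. Of 11 such genes, 3 had an LV-HOXA5 peak inside or within 3 kb, namely TGIF1, IRX3 and IRX5, and none had an LV-HOXA5-NC peak. TGIF2, TGIF2LX, TGIF2LY, IRX1, IRX2, IRX4, IRX6 and MKX had no peak. With lists of 8 and 11 genes and 20.7% as the usual share, 1 and 3 genes do not tell the lists apart.

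TGIF1 encodes a corepressor that binds the same core as MEIS proteins. Its peak (chr18:3459222-3459527) lay inside the gene, 451 bp from its downstream end, with 19 fragments and a 4.79-fold enrichment. IRX3 and IRX5 encode Iroquois proteins, which pattern embryonic tissues. The IRX3 peak (chr16:54286336-54286768) lay inside the gene, 19 bp from its higher end, with 16 fragments and a 5.04-fold enrichment. The IRX5 peak (chr16:54928995-54929604) lay 1261 bp below the gene, near the non-coding gene CRNDE, with 18 fragments and a 5.25-fold enrichment. All 3 peaks had a lower fold enrichment than that of PBX3, and the IRX5 peak had the same pileup.

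PBXIP1, which encodes a protein that binds PBX, had no peak in either list. HOXA5 itself had an LV-HOXA5 peak of 44 fragments and a 7.55-fold enrichment (rank 666), where fragments of the lentiviral copy were not told apart. RefSeq lists 3 pseudogenes that resemble members, PBX2P1, MEIS3P1 and MEIS3P2, to which reads of PBX2 or MEIS3 could be assigned. None of the 3 had a peak in either list.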

How the data were processed

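The 2 libraries, 1 LV-HOXA5 and 1 LV-HOXA5-NC, were made by CUT & Tag from TFK-1 cells. The submitters' processing notes name fastp, Bowtie2, deepTools, MACS2 and ChIPseeker and the build GRCh38. Per the file headers, the authors took reads without duplicates and ran MACS 2.2.7.1 in paired-end mode on each library alone, with no control file and a q-value limit of 0.05. For each peak the deposited tables hold the unscaled pileup signal, the fold enrichment (a ratio), and −log10 p-values and q-values. The second deposited form also holds a score made from the −log10 q-value, and its positions, fold and q-values were the same for all 8043 and 635 peaks.

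The background around a peak was computed as (pileup + 1) / fold − 1. With it, a Poisson p-value recovered the deposited one for 8017 and 630 peaks, to 0.01 on the −log10 scale. A peak counted at a gene when it shared 1 bp with it or its 3 kb window. Gene positions and promoter windows came from RefSeq (GRCh38.p14), and exons, introns and UTRs were not used here. All members, every other TALE gene with a peak and genes beside a member's peak were named. Members, lists and rules were chosen with earlier results of these data known. Depth was 15778555 and 1948734 fragments, and intervals are exact at 95% and cover counting error only. The joins were tested on simulated data. Other settings tried were stricter limits on q-value and fold, other windows and distances, all genes, and leaving out peaks shared with the control. Python 3.11.15, NumPy 2.4.6, SciPy 1.17.1, pandas 2.3.3 and Matplotlib 3.10.9 were used.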

Additional observations from a re-analysis of the deposited data

How the results depend on the processing

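No paired analysis was possible because each condition had 1 library. The number of cofactor genes with an LV-HOXA5 peak and the number of their peaks were both 1, and became 0 with the gene body only and 3 with a window of 10 kb. The number within 1 kb of a gene end was 1, and became 0 with the summit, with at least 0.5 of the peak's length and with the RefSeq start only, since the edge of the PBX3 peak lay inside that distance and its summit outside. The share of protein-coding genes with a peak, 20.7%, was 17.9% at a q-value of 0.001 or less, 11.2% with a fold at or above the median, 15.7% with the gene body only, 24.8% with a window of 10 kb and 11.3% over all genes of the table. The number of other TALE genes with a peak, 3, was 2 with a fold at or above the median and 2 with the gene body only, and 3 under the other settings. The number of cofactor genes with an LV-HOXA5-NC peak was 0 under every setting tried. By the limits set for a change, 12 of the 44 comparisons moved and 32, the TALE counts among them, did not. No fold enrichment could be given with the gene body only, where no peak is left. Control depth, 12.4% of that of LV-HOXA5, limits what a missing control peak can show.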
